A study of Mus musculus with 2 samples.

Results

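The renin-angiotensin system genes considered here were 9 genes chosen by name, Agt, Ren1, Ace, Agtr1a, Agtr1b, Agtr2, Mas1, Atp6ap2 and Enpep, among 55536 annotated genes. They were matched by symbol to the gene identifiers of the deposited transcript tables, and the rule itself uses no measured value. The tissue was the adrenal gland of B6CASTF1/J females, first-generation hybrids between C57BL/6J and CAST/EiJ, at 36 days, measured by total RNA-seq in 2 libraries of 1 group with no treatment or other condition named in the labels. A directional kit and 300 ng of ribosome-reduced RNA went into each library, and they held 35684781 expected counts in replicate 1 and 38701795 in replicate 2. The labels disagree on whether the libraries came from separate animals, so each SD measures the spread between 2 libraries, which may be technical. With 1 group there was no test and no p-value.

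Renin cuts angiotensinogen to angiotensin I, and angiotensin-converting enzyme (ACE) trims that to angiotensin II, the hormone that raises blood pressure and drives aldosterone secretion from the zona glomerulosa, the outer zone of the adrenal cortex. Angiotensin II acts through AT1 receptors, of which rodents have a pair encoded by Agtr1a and Agtr1b, and through the AT2 receptor encoded by Agtr2. Aminopeptidase A (Enpep) shortens angiotensin II to angiotensin III, the Mas receptor binds angiotensin-(1-7), and Atp6ap2 is the (pro)renin receptor and an accessory protein of the vacuolar proton pump (V-ATPase).

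The system was unevenly represented in the gland, with Agtr1a, and next Atp6ap2, far above the substrate and the enzymes, and Agtr1b level with an enzyme, Enpep. In TPM, a relative level that scales counts by transcript length and by the library's total, Agtr1a stood at 66.3 ± 11.0 (SD, n = 2 for this and every mean below), Atp6ap2 at 20.4 ± 1.40 and Agtr2 at 8.04 ± 1.81. Enpep stood at 3.69 ± 0.0778, Agtr1b at 3.61 ± 0.212, Ace at 2.46 ± 0.0354, Agt at 1.41 ± 0.255 and Ren1 at 0.755 ± 0.247 TPM, while Mas1 had 0 counts. Of the 9 genes, 7 were detected at 1 TPM or more in both libraries, beside 53.0% of nuclear protein-coding genes. Among those detected coding genes, 93.1% stood below Agtr1a, 72.4% below Atp6ap2 and 42.1% below Agtr2, but only 3.40% below Agt. By the TPM values of the 2 libraries, Enpep and Agtr1b overlapped, and the other neighbours in this order did not. The deposited TPM intervals also overlapped for Agt and Ren1 and for Ren1 and Mas1 in both libraries, and for Agtr1b and Ace in replicate 1.

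**Figure D1:**
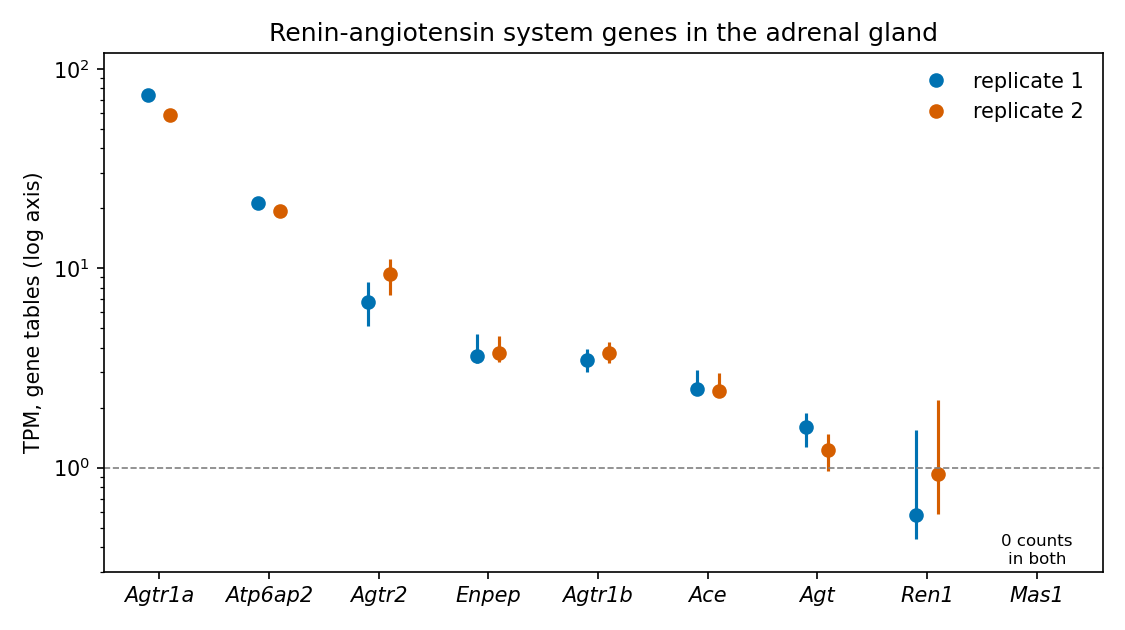
TPM of each gene in the gene tables (log axis) in replicate 1 and replicate 2, with bars for the deposited TPM interval and a dashed line at 1 TPM. Agtr1a is the highest at 74.1 and 58.6 TPM, Ren1 lies under the line in both libraries, and Mas1, with 0 counts, has no point.

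The libraries carried the RNA of an adrenal gland with some neighbouring tissue. All 7 cortex markers and all 9 medulla markers were detected. Among them, the steroidogenic enzyme Hsd3b1 stood at 4739 and 5237 TPM, the cholesterol transporter Star at 4620.2 and 4647 TPM, and the granins Chgb at 559.5 and 395 TPM and Chga at 465 and 381 TPM (replicates 1 and 2, as in every pair below). Summed liver markers stood at 38.3 and 2.53 TPM and skeletal muscle markers at 242 and 1.65 TPM, so replicate 1 held the more of both (the muscle actin Acta1 was at 97.6 and 1.11 TPM and the creatine kinase Ckm at 45.9 and 0.20 TPM). Fat markers summed to 1899 and 1883 TPM. Kidney markers, with 7 of 9 at 0 in both libraries, summed to 0.22 and 0.27 TPM, the rest being the water channel Aqp2 and the transporter Slc12a3. In such bulk RNA, fewer cells of a type and less RNA per cell cannot be told apart.

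Agt, which encodes angiotensinogen, the substrate of renin secreted mainly by the liver, lies at chr8:124556534-124569706 on the minus strand (mm10) and has 1 annotated transcript. It had 103 and 85 expected counts, or 1.59 and 1.23 TPM. Its share of counts in replicate 2 was 0.761 times that in replicate 1, with an exact 95% counting interval of 0.564 to 1.02 that includes no difference. The 7 liver markers summed to 2.53 TPM in replicate 2, where albumin (Alb) stood at 1.34 TPM against 22.7 TPM in replicate 1. Fat markers were high in both libraries (Fabp4, a fatty acid binding protein, at 789.7 and 749 TPM, and Cfd, an adipocyte protease, at 416 and 485 TPM). The part of liver or fat in the level of Agt was not tested.

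Ren1, which encodes renin, the protease whose main source is the juxtaglomerular cells of the kidney, lies at chr1:133350510-133360325 on the plus strand. It had 31 and 41 counts, that is 0.869 CPM (counts scaled to the library's total) with an exact 95% interval of 0.590 to 1.23 in replicate 1, and 1.06 CPM with one of 0.760 to 1.44 in replicate 2. Both counts were above the 3 that a count of 0 allows. The 0.58 and 0.93 TPM differed more than the counts, since 1.09 counts in replicate 2 were placed on Ren1-202, a transcript of 215 bases that took 25.8% of the gene's TPM. With every count placed on the full-length Ren1-201, the levels were 0.576 and 0.710 TPM. Of 9 kidney markers, 7 were at 0 TPM in both libraries, among them Nphs1, of glomerular podocytes, and Umod and Slc12a1, of the thick ascending limb. Aqp2 had 10 and 13 counts and Slc12a3 had 1 and 2. The part of kidney tissue in the level of Ren1 was not tested.

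Windows of 250 bases before to 50 after the annotated start were found in RefSeq (GRCm38.p6, the mm10 assembly) for 8 of the 9 genes, in 9 windows because Ace has 2, and not for Agtr1a. The letters TATAAA, the core of a TATA box, were searched on both strands and occurred in 5 of those 9 windows, beside 13.6% of all 32851 promoter windows. They lay 29 bases before the RefSeq start of Ren1, 30 before that of Agt, 31 before those of Agtr1b and the somatic start of Ace, and 52 and 1 before that of Enpep. The RefSeq start of Ren1 lies 164 bases inside Ren1-201. The matches of Ace and Enpep were to the reverse complement, TTTATA. Agtr2, Atp6ap2, Mas1 and the second start of Ace had no TATAAA in the window. Other forms of a TATA box were not searched, and the Agtr2 window holds the similar letters TATATAAG. Neither AAGGTCA, a site read by the steroidogenic factor NR5A1 (4.72% of all windows), nor TGACGTCA, the cAMP response element (1.79%), occurred in any of the 9. TGAGGTCA, which differs from that element by a base and shares its last letters with that site, occurred in 1 window, that of the second start of Ace (2.17% of all windows). These are matches of letters in a window and were not tied to binding. The 100 bases before the start are shown for Agt and Agtr1b, where the motif lies 30 and 31 bases before the start, and for both starts of Ace, whose use the transcript tables measure. They are written 5′ to 3′ on the gene's strand, with the motif in capitals, TATAAA or its reverse complement in the first 3 and TGAGGTCA in the last.
Agt, chr8:124569707-124569806, minus strand: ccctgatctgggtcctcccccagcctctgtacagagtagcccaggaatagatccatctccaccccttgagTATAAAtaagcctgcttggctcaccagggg
Agtr1b, chr3:20367178-20367277, minus strand: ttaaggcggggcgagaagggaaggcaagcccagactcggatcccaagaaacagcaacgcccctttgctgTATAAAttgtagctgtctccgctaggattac
Ace somatic start, chr11:105967848-105967947, plus strand: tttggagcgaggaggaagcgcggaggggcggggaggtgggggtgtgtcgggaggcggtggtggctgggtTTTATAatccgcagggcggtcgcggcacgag
Ace second start, chr11:105975089-105975188, plus strand: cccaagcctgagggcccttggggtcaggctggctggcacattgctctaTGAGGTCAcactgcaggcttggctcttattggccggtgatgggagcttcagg

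Ace, the converting enzyme, lies at chr11:105967945-105989964 on the plus strand and was nearly equal in the libraries, at 2.48 and 2.43 TPM from 402 and 429 counts. Its somatic form comes from the first start, while a shorter form known from male germ cells starts at chr11:105975208 (Ace-202), between exons 12 and 13 of the somatic Ace-201, with a first exon of 196 bases of its own. Ace-201 held 75.0% and 80.2% of the gene's TPM, and Ace-203, annotated without the start of its coding sequence, held the rest. The germ-cell form Ace-202 had 0 counts in both libraries in the alignment-derived tables and at most 0.287 estimated counts in the read-derived ones, under the 3 counts that 0 allows. Of 7 male germ cell markers, 5 were at 0 in both libraries, among them the protamines Prm1 and Prm2, and Acr and Tnp1 reached at most 0.08 TPM. The endothelial markers that accompany ACE in many vessels were all detected, at a summed 191 and 182.5 TPM, with Plvap, of fenestrated endothelium, the highest at 59.3 and 60.9 TPM and Egfl7 at 36.0 and 26.2 TPM, and their part in the level of Ace was not tested. Ace overlaps the antisense gene Gm11651 over 295 exon bases, and that gene stood at 0 TPM.

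Enpep, aminopeptidase A, lies at chr3:129269175-129332720 on the minus strand and had 492 and 503 counts, or 3.63 and 3.74 TPM. The gene levels were close, but their make-up was not. Full-length Enpep-201 held 88.7% of the TPM in replicate 1 and 75.4% in replicate 2. Transcripts annotated with a retained intron held 3.86% and 24.6%, and those annotated for nonsense-mediated decay 7.44% and 0%. In the read-derived tables, retained-intron transcripts held 11.4% and 36.7%, so replicate 2 was the higher by both quantifications, and nonsense-mediated decay transcripts 27.1% and 8.92%, with replicate 1 the higher. The retained-intron transcript Enpep-203 rested on 10.2 and 50.6 counts in the alignment-derived tables. There the retained-intron transcript Enpep-202 rested on only 0 and 7.72 counts. The share of nonsense-mediated decay transcripts rested on 7.10 and 0 counts, on Enpep-204. In this gene the direction between libraries depended on the scaling. The log2 ratio of replicate 2 over replicate 1 was 0.04 on TPM + 0.1, and -0.11 on counts with TMM scaling.

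Agtr1a, the main AT1 receptor of rodents, lies at chr13:30336441-30382867 on the plus strand. It was the highest of the 9 genes in both libraries at 74.1 and 58.6 TPM, from 5007 and 4253 counts. The deposited TPM intervals of the libraries did not overlap, at 69.2 to 77.2 in replicate 1 and 54.7 to 61.2 in replicate 2. Agtr1a stood at 1.08 and 0.914 times the level of Cyp11b2, aldosterone synthase, which was at 68.7 and 64.0 TPM. It held 87.9% and 81.7% of the summed TPM of the 4 angiotensin receptor genes Agtr1a, Agtr1b, Agtr2 and Mas1. Agtr1b, the other AT1 receptor, lies at chr3:20314473-20367177 on the minus strand and had 251 and 296 counts, or 3.46 and 3.76 TPM. The ratio of Agtr1a to Agtr1b was 21.4 in replicate 1 and 15.6 in replicate 2, a mean of 18.5 ± 4.13.

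Whether the counts of the receptor pair could be told apart rests on their sequence. The coding sequences of Agtr1a-201 and Agtr1b-201 are each 1080 bases long in a single exon and identical at 981 of them, or 90.8%, with no gap between them. The longest run of identical bases was 66 bases long (coding positions 75 to 140, counted from 1 at the start codon). Over the whole transcripts, 93 of 2169 windows of 31 bases in Agtr1a-201 occurred in Agtr1b-201, or 4.29%, and 0 of 2100 windows of 100 bases did. The deposited posterior SD of each gene's count was 0.17 counts in replicate 1 and 0.42 in replicate 2, small beside the 251 and 296 counts of Agtr1b. The shared run and the 60-base coding window where the pair differed most are shown, with the 13 differing bases of that window in capitals.
Shared run, Agtr1a chr13:30381028-30381093, plus strand: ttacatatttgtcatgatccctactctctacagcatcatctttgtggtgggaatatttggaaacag
Agtr1a, chr13:30381917-30381976, plus strand: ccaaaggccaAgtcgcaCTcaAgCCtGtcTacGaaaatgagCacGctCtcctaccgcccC
Agtr1b, chr3:20315418-20315477, minus strand: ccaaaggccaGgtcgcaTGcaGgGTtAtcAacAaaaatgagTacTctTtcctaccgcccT

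Agtr2, the AT2 receptor, lies at chrX:21484544-21489164 on the plus strand and had 370 and 515 counts, or 6.76 and 9.32 TPM, with replicate 2 the higher. The deposited TPM intervals, 5.13 to 8.55 and 7.30 to 11.2, overlapped. Its level rested in large part on a short transcript. Agtr2-202, a processed transcript of 314 bases without a coding sequence, took 56.1% and 59.1% of the gene's TPM from 29.5 and 45.8 counts, which were 7.96% and 8.90% of the gene's counts. The coding transcript Agtr2-201 held 2.97 and 3.81 TPM. The first exon of Agtr2-202 is 43 bases long, and 84.9% of its 31-base windows also occur in Agtr2-201. The read-derived tables placed 0 counts on Agtr2-202 and 365 and 499 on Agtr2-201.

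Mas1, the receptor for angiotensin-(1-7), lies at chr17:12841079-12868143 on the minus strand. It had 0 counts in both libraries, on each of its 10 transcripts and in both quantifications. A count of 0 allows up to 3 counts, or 0.0841 CPM in replicate 1 and 0.0775 CPM in replicate 2, where Agtr1a had 140.3 and 109.9 CPM. Part of Mas1 is overlapped by Airn, a noncoding RNA on the other strand that shares no exon base with it and stood at 1.92 TPM.

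Atp6ap2, the (pro)renin receptor, lies at chrX:12587801-12617049 on the plus strand and had 1714 and 1656 counts, or 21.4 and 19.4 TPM. Its single coding transcript, Atp6ap2-201, held 100% and 99.1% of the TPM. The deposited TPM intervals overlapped, at 20.1 to 22.1 and 18.2 to 20.2. Atp6ap1, the other accessory protein of the proton pump, stood 3.40 and 3.75 times as high.

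Since the tissue, strain, sex and age were shared, the libraries show how far each gene varied within the group. Of the 6 genes with 200 or more summed counts, 0 were 2-fold or more apart on TPM + 0.1, beside 0.904% of the 12280 genes so filtered, and 3 were higher and 3 lower in replicate 2. The deposited TPM intervals failed to overlap for 1 of the 6, Agtr1a, beside 15.0% of the filtered genes. Agtr1a was lower in replicate 2, with a log2 ratio of -0.34 and a ratio of count shares of 0.783 (exact 95% counting interval 0.752 to 0.816), and 12.6% of the filtered genes had a larger difference. Agtr2 was higher, with a log2 ratio of 0.46 and a ratio of count shares of 1.28 (1.12 to 1.47), and 6.81% had a larger one. Atp6ap2 had a ratio of count shares of 0.891 (0.832 to 0.954). Those of Ace, 0.984 (0.857 to 1.13), Agtr1b, 1.09 (0.916 to 1.29), Enpep, 0.943 (0.831 to 1.07), and Ren1, 1.22 (0.746 to 2.01), had intervals that include no difference. The intervals cover counting error only. The SD of the log2 ratio over the filtered genes was 0.373, with extremes of -7.66 and 7.40 among them. On TPM + 0.1, Atp6ap2 lay within 1 SD of the median of 0.036, and Agtr1a and Agtr2 just outside it on either side. With TMM scaling of counts, the log2 ratio was 0.33 for Agtr2 and -0.38 for Agtr1a.

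**Figure D2:**
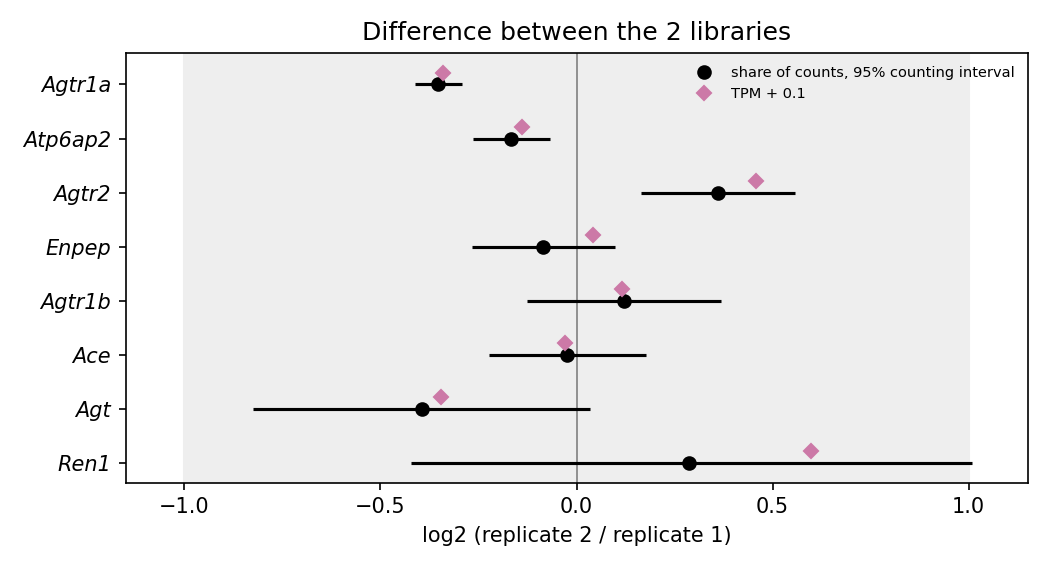
Log2 of replicate 2 over replicate 1 for the 8 genes with counts, as the share of counts with its exact 95% counting interval (black) and as TPM + 0.1 (diamonds); the grey band spans a 2-fold difference either way. Agtr1a and Atp6ap2 lie left of 0 and Agtr2 right of it with their whole intervals, and every point lies inside the band.

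The lower Agtr1a level in replicate 2 was set beside markers of the zone where AT1 receptors are best known. The 8 zona glomerulosa markers, all detected, summed to 279.5 and 282 TPM, a sum in which Dab2, an endocytic adaptor, weighed most at 128 and 143 TPM. Of the 8, 5 were lower in replicate 2, where 5077 of the 12280 filtered genes were lower. The 8 had a median log2 ratio of -0.09, and Cyp11b2 had one of -0.10. Hsd3b6, a glomerulosa steroid dehydrogenase at 28.1 and 21.8 TPM, had the lowest log2 ratio of the 8, at -0.36. The other 3 were higher in replicate 2, with Dab2 the highest at 0.16. Adrenal cortex markers summed to 16361 and 16834 TPM, with 5 of 7 higher in replicate 2. Fat markers had 4 of 6 higher, and endothelial markers had 4 higher and 4 lower. Medulla markers summed to 1515 and 1142 TPM and 8 of 9 were lower in replicate 2. Capsule and fibroblast markers summed to 212 and 187 TPM with 6 of 6 lower (Col3a1, a fibrillar collagen, at 66.8 and 53.2 TPM and Dcn, a matrix proteoglycan, at 56.2 and 54.6 TPM), and red blood cell markers to 2383 and 1876 TPM with 5 of 5 lower (the globins Hba-a1 at 845 and 677 TPM and Hbb-bs at 751 and 607 TPM). The part of these tissues in the difference of Agtr1a or Agtr2 was not tested. Smooth muscle and pericyte markers summed to 75.0 and 67.0 TPM, with 7 of 8 detected (Tagln, an actin-binding protein, at 30.5 and 27.5 TPM and Rgs5, a pericyte marker, at 11.2 and 11.6 TPM), and Des, desmin, which skeletal muscle also makes, was the 1 of them 2-fold lower in replicate 2, at 11.7 and 5.66 TPM.

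The second quantification, derived straight from the reads, ran 1.62-fold above the gene tables over the median gene (log2 0.70), so its levels were read relative to that shift. Read-derived levels were 183 and 152 TPM for Agtr1a, 31.6 and 29.1 for Atp6ap2, 7.21 and 7.30 for Enpep, 5.73 and 6.29 for Agtr1b and 4.84 and 6.21 for Agtr2. Ace stood at 4.38 and 3.92 TPM, Agt at 2.51 and 1.81, Ren1 at 1.12 and 1.37, and Mas1 again at 0. Of the 8 genes at 1 TPM on average in either quantification, 1, Agtr1a, was 2-fold or more apart between quantifications on TPM + 1 (2.50-fold higher), beside 20.7% of 14969 genes. Relative to the median gene, 1 of the 8, Agtr2, was 2-fold or more apart (0.444 times), beside 6.32% of genes. The order below Atp6ap2 therefore differed, with Agtr2 above Enpep and Agtr1b in the gene tables and overlapping Agtr1b in the read-derived ones.

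For both receptors the shift came with short transcripts. In the alignment-derived tables Agtr1a-201 held 87.0% and 87.3% of the Agtr1a TPM. In the read-derived tables it held 55.3% and 52.3%, and Agtr1a-206, a partial transcript of 445 bases with an exon of 102 bases that Agtr1a-201 lacks, held 42.5% and 44.0%. That share rested on 272 and 242 estimated counts, 5.30% and 5.62% of the gene's, against 5.03 and 10.4 counts on Agtr1a-206 in the alignment-derived tables. A count on Agtr1a-206 also weighed more, since its effective length was 137 and 133 bases in the read-derived tables and 346 in the others. For Agtr2 the short transcript stood in the other quantification, as given above. Of the 6 genes with several transcripts and 1 TPM or more in both quantifications, the leading transcript differed for 1, Agtr2, beside 24.1% of 11155 such genes. Agtr1b-201 led in both, with 92.8% and 97.6% of the TPM by alignment and 83.7% and 75.0% from the reads. Ace-201 held 67.6% and 72.3% in the read-derived tables, and Enpep-201 61.5% and 54.3%.

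All counts of a gene were also placed on its longest coding transcript, a scale chosen after the transcript values were seen. The read-derived mean was then 1.65-fold that of the gene tables for Agtr1a and 1.52-fold for Agtr2, where the deposited levels of the median gene differed 1.62-fold. Agtr1a stood at 66.1 and 52.3 TPM in the gene tables and 109 and 86.4 TPM in the read-derived ones. Agtr2 stood at 3.22 and 4.18 TPM, and 4.92 and 6.34 TPM. On this scale Agtr2 overlapped Agtr1b, at 3.40 and 3.74 TPM, and Enpep, at 3.34 and 3.19 TPM, in the gene tables. The ratio of Agtr1a to Agtr1b was 16.7 ± 3.85 and 17.0 ± 3.63 in the respective quantifications, and Agtr1a held 90.9% and 86.9% of the receptor TPM by the gene tables. The gene order at both ends, with Agtr1a and Atp6ap2 first and Agt, Ren1 and Mas1 last, was the same on all 4 scales.

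**Figure D3:**
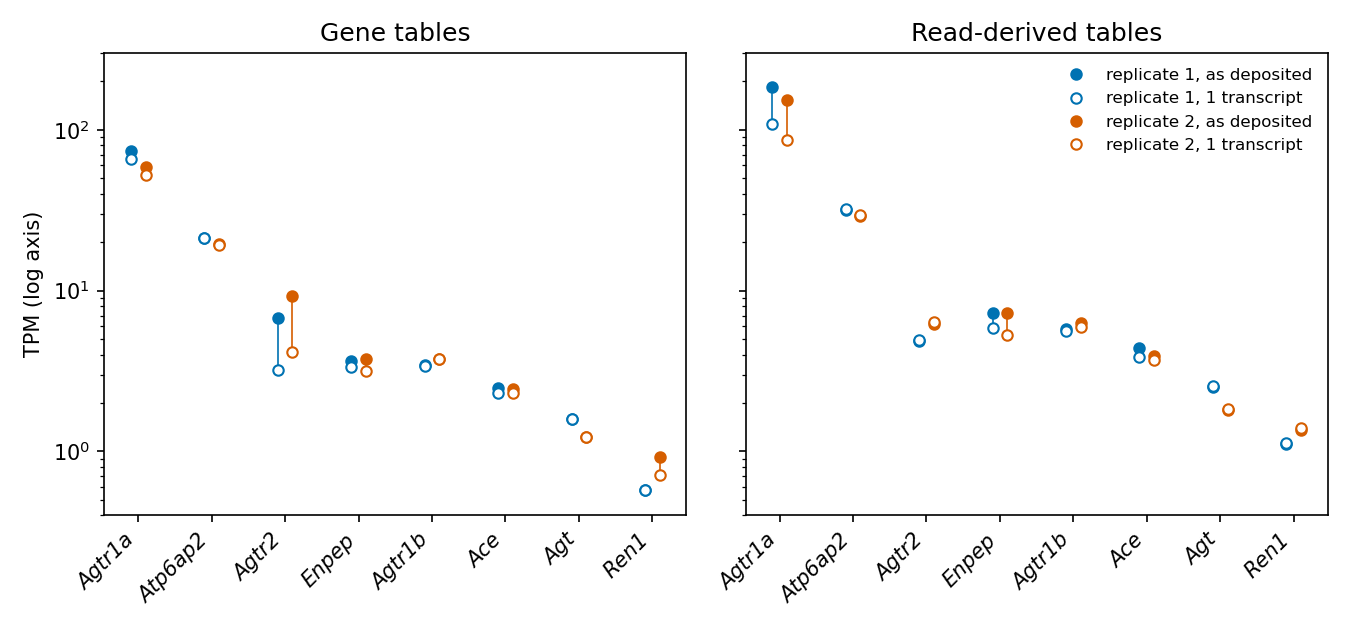
TPM (log axis) of the 8 genes with counts in the gene tables (left) and the read-derived tables (right), as deposited (filled) and with all counts on the longest coding transcript (open), for replicates 1 and 2. Agtr2 goes from 6.76 and 9.32 TPM to 3.22 and 4.18 TPM on the left and hardly moves on the right, and Agtr1a moves most on the right.

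Around these genes, the other angiotensin peptidases spanned a wide range. Of 15 listed peptidases, Ace and Enpep included, 12 were detected, and the 12 with 200 or more summed counts had a median of 6.70 TPM beside 10.4 TPM over the 12280 filtered genes. The highest was Ece1, endothelin-converting enzyme, at 83.7 and 77.8 TPM, followed by Lnpep, the insulin-regulated aminopeptidase that binds angiotensin IV, at 40.1 and 45.7 TPM. Dpp3, a peptidase that degrades angiotensin II, stood at 30.2 and 33.3 TPM, and Thop1, which forms angiotensin-(1-7) from angiotensin I, at 16.8 and 17.2 TPM. The mast cell and neutrophil enzymes that can also make angiotensin II were low. Cma1, chymase, stood at 1.08 and 0.58 TPM and Ctsg, cathepsin G, at 0.03 and 0 TPM, while of 6 mast cell markers 2 were detected, with Hdc, histidine decarboxylase, the highest at 12.3 and 7.87 TPM and Kit, a receptor kinase, at 1.17 and 1.97 TPM. Of the 12 filtered peptidases 10 were higher in replicate 2, beside 58.3% of all filtered genes (7158 of 12280), with a median log2 ratio of 0.13 beside 0.036 over all filtered genes, and 0 were 2-fold apart. These values are on TPM + 0.1. With TMM scaling of counts fewer of the 12 were higher, and Thop1, for example, had a log2 ratio of -0.03.

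Among 12 receptors and receptor-binding proteins 10 were detected, with a median of 14.1 TPM. Mas1 and Mrgprd, another Mas-related receptor, were at 0. Rgs2, which curbs Gq signalling, stood at 88.7 and 159 TPM, a log2 ratio of 0.84 and the largest difference on the list. On counts with TMM scaling its log2 ratio was 1.12, which is over 2-fold, beside 0.871% of the filtered genes that were 2-fold or more apart on that scale. Mtus1, which encodes an AT2 receptor-interacting protein, stood at 35.0 and 36.7 TPM, and Agtrap, which binds the AT1 receptor, at 26.7 and 29.3 TPM. On this list 6 genes were higher and 4 lower in replicate 2, about the 58.3% higher over all filtered genes, with a median log2 ratio of 0.06, and 0 were 2-fold apart on TPM + 0.1.

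All 18 genes listed for AT1 receptor signalling were detected, with a median of 14.9 TPM. Itpr1, an inositol trisphosphate receptor that releases calcium, stood at 53.8 and 50.6 TPM, Gna12, a G protein subunit, at 39.5 and 47.2 TPM, and Camk2d, a calmodulin kinase, at 24.5 and 29.4 TPM. Plcb1, a phospholipase C coupled to Gq, stood at 23.5 and 28.4 TPM, and the lowest were Itpr3 at 1.46 and 1.79 TPM and Prkca, protein kinase C alpha, at 2.72 and 2.42 TPM. Of the 18, 14 were higher in replicate 2, beside 58.3% of all filtered genes, with a median log2 ratio of 0.18 beside 0.036, and 0 were 2-fold apart. These values are on TPM + 0.1. With TMM scaling of counts fewer of the 18 were higher, so the direction of the smaller differences depended on the scaling.

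All 8 genes for binding and processing of prorenin were detected, with a median of 50.7 TPM. The lysosomal proteases Ctsb, at 386 ± 5.44 TPM, and Ctsd, at 346 ± 7.11 TPM, led this list, followed by the proprotein convertase Pcsk5 at 50.4 and 55.3 TPM and the mannose 6-phosphate receptor M6pr at 54.7 and 50.6 TPM. Atp6ap2 was second lowest, above the convertase Pcsk1 at 4.38 and 4.17 TPM. Of the 8, 2 were higher and 6 lower in replicate 2, where 58.3% of all filtered genes were higher, with a median log2 ratio of -0.06, and 0 were 2-fold apart.

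Of 24 V-ATPase subunits and accessory genes, 18 were detected, with a median of 30.4 TPM. Atp6v1e1 stood at 139 and 145 TPM, Atp6v0c at 131.5 and 132 TPM, Atp6v1h at 90.1 and 87.7 TPM and Atp6ap1 at 72.7 TPM in both, all above Atp6ap2. Atp6v1b1 and Atp6v1g3, known from the intercalated cells of the kidney, and the testis isoform Atp6v1e2 were at 0 in both libraries. Atp6ap2, with a log2 ratio of -0.14, was among 11 of the 17 filtered genes that were lower in replicate 2, where 5077 of the 12280 filtered genes were lower, with a list median of -0.04, and 0 were 2-fold apart.

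**Figure D4:**
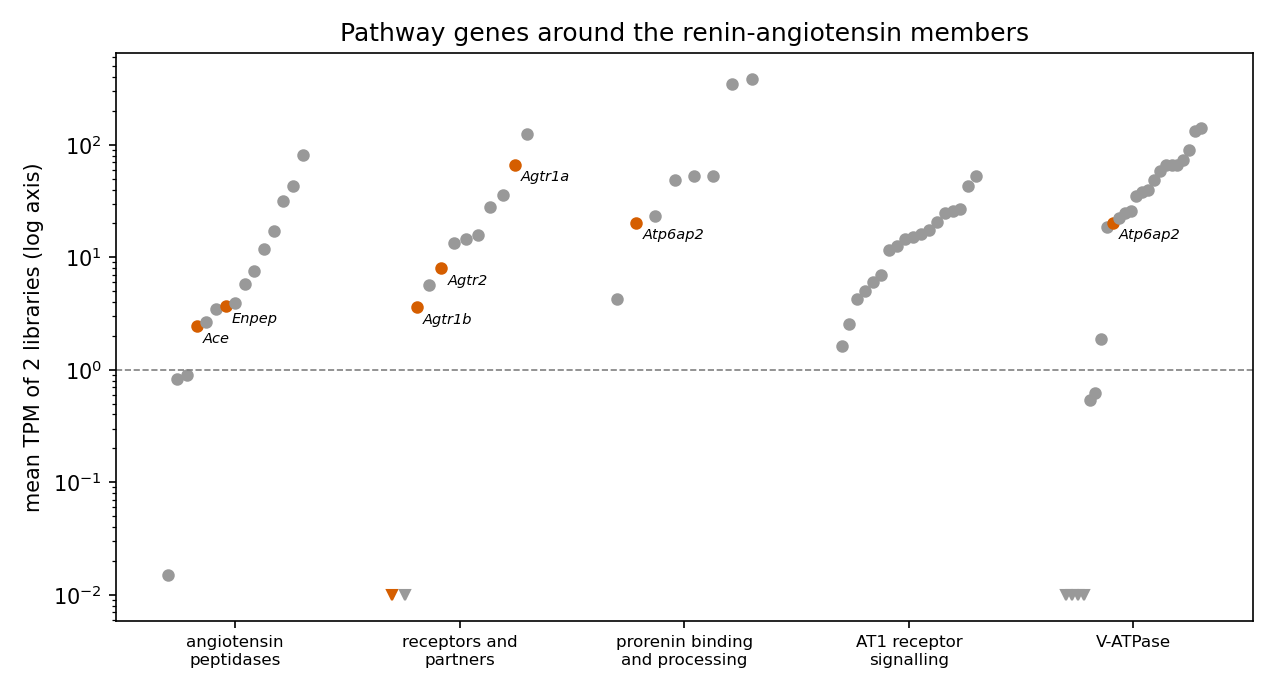
Mean TPM over the 2 libraries (log axis) of the genes of 5 lists, with renin-angiotensin members in orange, others in grey, and a dashed line at 1 TPM. Members are labelled except Mas1, at 0 TPM, and Agt and Ren1 are on none of these lists. Triangles stand for genes under 0.01 TPM, drawn at that level. Agtr1a is second on its list after Rgs2, while Atp6ap2 lies toward the low end of both of its lists.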

How the data were processed

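Adrenal gland total RNA-seq of 2 libraries in 1 group was analysed. Per the file headers, the authors deposited for each library a gene table and an alignment-derived transcript table with an expected count and TPM, in the column names that RSEM writes, and a read-derived transcript table with an estimated count and TPM, in the column names that kallisto writes. The text beside the deposited files names mm10 and GENCODE M21. The interval bounds deposited beside TPM were taken as a signal. Their confidence level, the aligner, versions, filters and any use of strand in counting were not given in the sources used here, so antisense and overlapping genes are uncertain. Reads of the hybrid's 2 parental alleles were counted together on the reference genome.

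Levels are means and SDs of deposited TPM. Read-derived gene levels are sums over transcripts. A gene was detected at 1 TPM in both libraries. Library differences are log2 ratios of TPM + 0.1, with 200 summed counts required for counts of genes. Quantifications were compared on TPM + 1, over genes at 1 TPM on average in either. Ratios of count shares carry exact 95% Clopper-Pearson intervals, and 0 counts allow up to 3. Both cover counting error only. With totals of 35684781 and 38701795 expected counts, 1 TPM rests on few counts for short transcripts. Other scalings came from edgeR 4.0.16 (TMM) and DESeq2 1.42.0 size factors in R 4.3.3, on expected counts rounded to whole numbers. The TMM scaling, the edgeR coefficient of variation and the 2-fold calls on TMM-scaled counts were tested on simulated data. What edgeR calls the biological coefficient of variation was 0.136 over the 16564 genes that reached 10 counts in each library. As the libraries may not come from separate animals, that spread may be technical. Python 3.11.15, numpy 2.4.6, pandas 2.3.3, scipy 1.17.1 and matplotlib 3.10.9 were used.

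The rule for named genes took all 9 members, the 4 highest and 2 lowest of each pathway list, those at 0 or 2-fold apart, the 2 highest of a marker list and genes set beside a member. Members and lists were chosen with earlier results of these data known. Alternatives were other pseudocounts, filters, scalings, the read-derived tables and leaving out each library. Some genes of the lists are counted but not reported here by name.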

Additional observations from a re-analysis of the deposited data

How the results depend on the processing

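With 2 libraries, leaving out 1 always moves a mean by less than the SD, so such values show nothing about stability. Apart from them, the levels of the 8 genes with counts were computed under 4 other settings. Of those 32 values 27 moved by more than the SD between libraries, from the read-derived tables, from TPM rescaled over nuclear protein-coding genes or from placing all counts on 1 transcript. Rescaled over nuclear protein-coding genes, Agtr1a stood at 213 TPM and Agt at 4.52 TPM. The read-derived tables and the rescaling change the scale of levels as a whole, so moves there say little about stability. With all counts on 1 transcript in the gene tables, only Ace, Agtr2 and Enpep moved. Of 40 alternative library differences of these genes 1 moved beyond its counting interval (Agtr1a, -0.27 in the read-derived tables) and 2 changed sign, both for Enpep under count scaling, at -0.11 with TMM and -0.10 with DESeq2 size factors. The number of detected genes was 7 without either library and 8 at 0.5 TPM, at more than 3 counts and in the read-derived tables, where Ren1 joined. The number of all genes 2-fold apart, 111, was 298 with a minimum of 50 summed counts, 1913 with no filter, 73 on TPM + 1 and 135 in the read-derived tables. The number of genes 2-fold apart between quantifications, 3106, was 946 relative to the median gene, a setting chosen after seeing the data. The ratio of Agtr1a to Agtr1b, 18.5, was 28.1 in the read-derived tables, 17.2 on expected counts, and 15.6 to 21.4 when either library was left out. In the read-derived tables the share of the leading transcript moved by more than the SD for 5 of 8 genes. No paired analysis was possible because there is 1 group. Depth limits Ren1 and Agt, whose counts were 31 to 103.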
